A study of Macaca mulatta with 6 samples.

Results

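This report describes 46 genes of the cell cycle in the adrenal gland of the rhesus macaque over the day. The genes were taken from a fixed list of cyclins, cyclin-dependent kinases and their inhibitors, replication factors and mitotic factors. A probe set, the group of array probes that reads 1 transcript, counted for a gene only where the platform annotation names that gene alone. All 46 genes met this with 84 probe sets between them, out of 11963 genes on the array that did. Each gene was read from its probe set with the highest mean of log2(intensity + 1) over the 6 arrays. A level filter was set at the median probe set, controls aside (a log2 value of 7.30, or an intensity near 157). Of the 46 genes, 25 reached it and were tested among the 7164 genes that did, and 21 lay below.

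The study asked how adrenal gene expression varies over 24 h. Every sample was the left adrenal gland of an ovariectomized female macaque caged singly for 3 months in a cycle of 12 h light and 12 h dark, and fasted for 12 h before necropsy. The clock times sampled were 3 AM, 7 AM, 11 AM, 3 PM, 7 PM and 11 PM, with 1 animal and 1 array for each, so no clock time had a replicate, and a p-value measures the spread between animals of different clock times. The 7 PM animal was 7 years and 82 days old, the 11 PM animal 8 years and 70 days, the 3 PM animal 8 years and 106 days, the 11 AM animal 10 years and 37 days, and both early-morning animals (3 AM and 7 AM) 12 years, so clock time and age cannot be fully told apart. No source used here states when the lights came on.

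As background, cells that divide pass through a gap phase, DNA synthesis, a second gap and mitosis. Cyclins D and E with their kinases release E2F factors from the retinoblastoma protein, E2F factors switch on replication genes, and cyclins A and B with CDK1 then drive mitosis. Inhibitors of the CIP/KIP family (CDKN1A, CDKN1B and CDKN1C) hold these kinases back. The adult adrenal cortex renews slowly from cells near its capsule, and its steroid-making cells are mostly not dividing. WEE1, the kinase that restrains CDK1, is a known output of the circadian clock in rodent liver.

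The tissue read as adrenal. The steroid hydroxylase gene CYP17A1 lay between 28646.5 and 40394 on the 6 arrays, STAR, which carries cholesterol into mitochondria, between 9833.4 and 16413.3, and TH, the first enzyme of catecholamine synthesis in the medulla, between 1902.6 and 8244.7. Hybridisation controls, bacterial and phage transcripts added to each target, were dimmer at 3 PM (geometric mean 669) and 3 AM (542) than on the remaining 4 arrays (948 to 1101). The median intensity of an array was lowest at 7 AM (154.1) and highest at 3 PM (173.4).

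No tested cell cycle gene passed a test of a 24-h rhythm. In a fit of a 24-h cosine by limma's moderated F test, 0 of the 25 tested genes had an adjusted p under 0.05, where 0.0% of all 7164 genes did, and 0 of 25 had an unadjusted p under 0.05, where 5.56% of all genes did. The ordinary F test without moderation gave the same counts of 0 and 0 for the 25. The fitted peak was 1.10 times the trough in CCND3 and 2.58 times in CDKN1A, the ends of the range. The fitted peak was at least 1.5 times the trough in 11 of 25 genes, where it was in 31.4% of all genes. The median log2 peak-to-trough difference was 0.48 over the 25 genes and 0.43 over all genes tested. With a median standard error of 0.33 for that difference, small rhythms would not have been detectable in these 6 arrays. The smallest p among the members belonged to WEE1, CDKN1A, MKI67 and MCM7, each at an adjusted p of 0.836.

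No tested gene passed the comparison of day and night arrays either. The mean of 7 AM, 11 AM and 3 PM was set against that of 7 PM, 11 PM and 3 AM, 3 arrays against 3, where an exact test cannot go below 0.1. By limma 0 of 25 genes passed at an adjusted p under 0.05 (0.0% of all genes) and 0 of 25 at an unadjusted p under 0.05 (5.39% of all genes), also with the ordinary test. Of the 25, 12 lay higher by day and 13 lower, with a median log2 difference of -0.001, against -0.004 over all genes, of which 49.1% were higher by day. The day and night arrays failed to overlap in 0 of the 25 genes and in 10.9% of all genes.

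**Figure D1:**
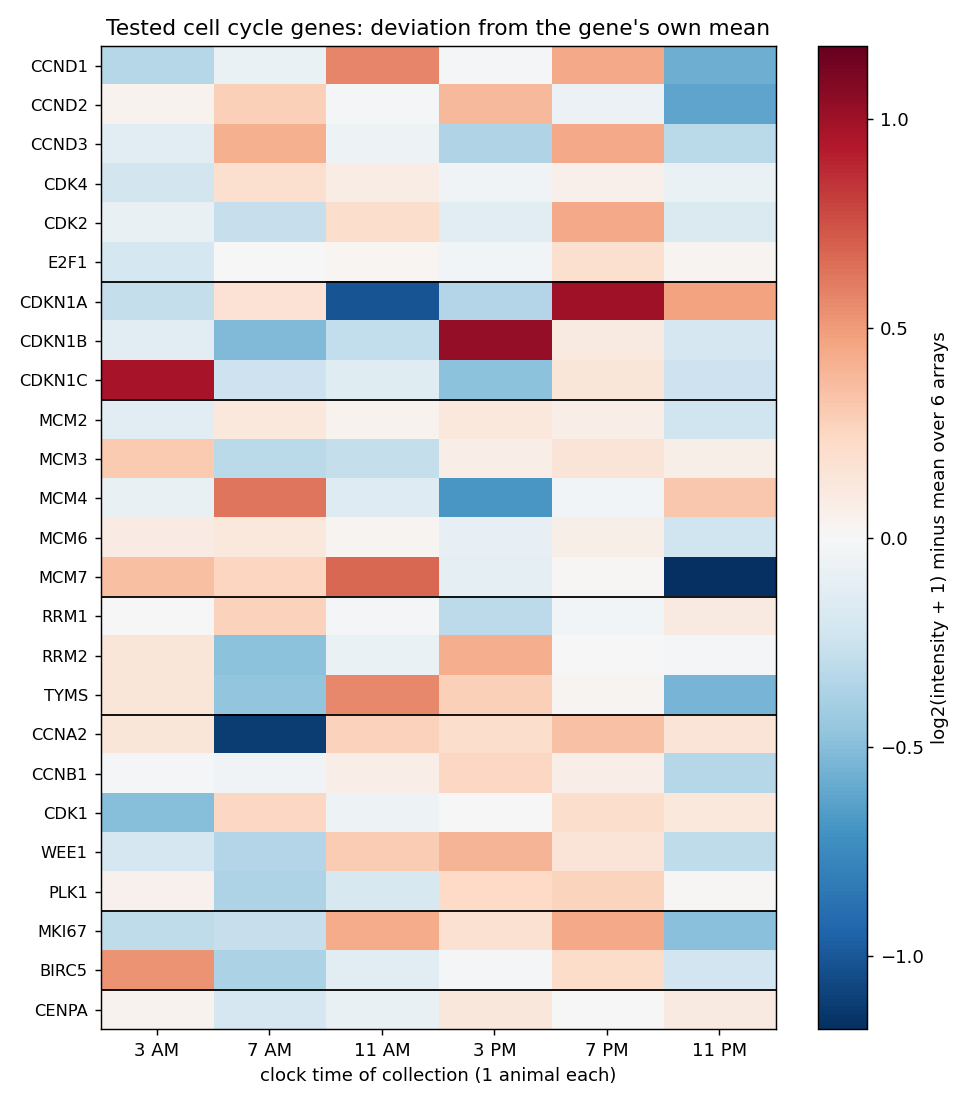
Deviation of log2(intensity + 1) from the gene's own mean over 6 arrays for the 25 tested cell cycle genes (rows, with black lines between role groups) at each clock time (columns, 1 animal each). Red is above the gene's mean and blue below it. The 3 inhibitors CDKN1A, CDKN1B and CDKN1C have their deepest red at 7 PM, 3 PM and 3 AM.

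The 3 inhibitors of cyclin-dependent kinases were among the 5 tested members with the widest ranges over the arrays, beside MCM7 and CCNA2, and each was highest on a different array. CDKN1C, which encodes an inhibitor that is maternally expressed by imprinting and abundant in the adrenal cortex, read 3787.7 at 3 AM, against 1630.7 at 7 AM, 1750.5 at 11 AM, 1386.7 at 3 PM, 2137.6 at 7 PM and 1628.1 at 11 PM. The 3 AM animal stood above the other 5, and the highest value was 2.73 times the lowest. All 3 further CDKN1C probe sets at or above the median had their highest value at 3 AM too, with 3739.8, 2508.8 and 1777.9, while none of them exceeded 1917.2 on another array. These probe sets read the same transcript in the same 6 animals and are not independent. The fitted cosine peaked at 2.22 h with a log2 peak-to-trough difference of 0.82 ± 0.46 (SE, adjusted p = 0.870 by limma). This CDKN1C difference was 0.17 without the 3 AM array and 1.38 without the 11 PM array (unadjusted p = 0.0459 by limma). With age as a covariate it was 2.99 (unadjusted p = 0.099 by limma), where the fitted peak lay at 19.1 h. That 2.99 exceeded the log2 range of the values over the 6 arrays, 1.45. The log2 day-minus-night difference was -0.58 ± 0.30 (SE, adjusted p = 0.894 by limma). It was -0.24 without the 3 AM array and -0.14 without the 3 AM and 3 PM arrays.

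Several other measures stood at an extreme at 3 AM. The summed intensity of 5 adipocyte markers was 4149.2 there, the highest of the 6 arrays, and 3699.8 at 11 PM. Of these markers ADIPOQ, LPL and FABP4 were highest at 3 AM, and PLIN1 and CIDEC at 11 PM. The summed intensity of 8 endothelial markers was 2841.3 at 3 AM, also the highest, but through VWF alone. VWF read 1086.7 at 3 AM and 78.3 to 281.4 elsewhere. Without VWF, an alternative added after seeing the data, the sum of the other 7 endothelial markers was lowest at 3 AM, at 1754.6 against 2022.9 to 2191.1. The summed intensity of 8 adrenal cortex markers (55165.9) and of 9 chromaffin markers (14883.5) was lowest at 3 AM. In the cortex list CYP11A1, CYP17A1, STAR and HSD3B2 were lowest there, CYP11B1, CYP11B2 and NR5A1 at 7 AM, and MC2R at 11 AM. Of the chromaffin markers TH, DBH, PNMT, CHGB and PHOX2A were lowest at 3 AM, CHGA, GATA3 and SLC18A1 at 11 PM, and DDC at 7 PM. The hybridisation controls were also lowest at 3 AM. The part of these in the CDKN1C value was not tested. In whole-gland RNA, fewer cells of a type and less RNA per cell cannot be told apart.

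CDKN1A, which encodes an inhibitor induced by p53, read 454.7 at 7 PM and 316.8 at 11 PM, then 255.1 at 7 AM, 186.8 at 3 AM, 179.2 at 3 PM and 111.7 at 11 AM. The evening animals were the highest and the late-morning animal the lowest, a range of 4.07 times, but 3 AM fell among the day arrays. The cosine peaked at 21.7 h with a log2 peak-to-trough difference of 1.37 ± 0.50 (SE, adjusted p = 0.836 by limma). Without the 7 AM array it was 2.14 with an unadjusted p of 0.00327. The log2 day-minus-night difference was -0.80 ± 0.38 (SE), with a 95% interval of -1.66 to 0.07 and an adjusted p of 0.894 by limma. This CDKN1A difference passed the unadjusted threshold without the 3 AM array (-1.14) or 7 AM (-1.08). It was smaller without 11 AM (-0.49) or 7 PM (-0.50). CDKN1A has 1 probe set here, so no other reading of it could be set beside these values.

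CDKN1B, the inhibitor that accumulates in resting cells, read 327.7 at 3 PM and 111.2 to 172.4 on the other 5 arrays. Its mean log2 value of 7.33 lay just above the threshold of 7.30, and on 4 of the 6 arrays it read under 157. The hybridisation controls were low on that array.

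The cyclins and kinases of the gap before DNA synthesis differed in how much they varied. CDK4, the kinase of the D cyclins, lay between 2410.5 at 3 AM and 3193.4 at 7 AM, a range of 1.32 times, with a 95% interval of -0.26 to 0.57 for the log2 day-minus-night difference. E2F1, the transcription factor that these kinases free, lay between 207.3 and 272.5. CDK2, the partner of cyclins E and A, was 306.3 at 7 PM and 186.3 to 259.2 elsewhere. CCND3 was 1331.7 at 7 PM and 1304.7 at 7 AM, and between 765.3 and 939 on the other 4 arrays. CCND2 was 840.5 at 11 PM, its lowest value, and between 1229.1 and 1682.4 elsewhere, with a log2 day-minus-night difference of 0.43 ± 0.23 (SE, adjusted p = 0.894 by limma). Both further CCND2 probe sets lay below the median. CDK6, CCNE1 and CCNE2 lay below the median as well, and CDK6 was just under it at 7.24, with 26.7 at 7 AM and 119.3 to 299.6 elsewhere.

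The proliferation marker MKI67 lay higher from late morning to evening. Its product coats chromosomes in dividing cells. It read 520.4 at 11 AM, 435.7 at 3 PM and 523.1 at 7 PM, against 312.9 at 3 AM, 318.8 at 7 AM and 273.1 at 11 PM. All 3 arrays from 11 AM to 7 PM stood above all 3 from 11 PM to 7 AM. A second MKI67 probe set at or above the median ran 270.5, 226 and 276.1 from 11 AM to 7 PM, against 205.8, 221.9 and 224.2 from 3 AM, 7 AM and 11 PM, so it too did not overlap, with a smaller log2 difference of 0.24 against 0.71. Both other MKI67 probe sets lay below the median and were highest at 3 PM, with log2 differences of 0.01 and -0.04.

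WEE1 was divided in the same way. It read 309 at 11 AM, 332.4 at 3 PM and 279.8 at 7 PM, against 219.4 at 3 AM, 197.5 at 7 AM and 204.4 at 11 PM. Again the groups did not overlap. Its fitted peak lay at 14.7 h, 1.70 times the trough (log2 0.76 ± 0.27, SE, adjusted p = 0.836 by limma). A second WEE1 probe set, below the median with 17.9 to 84.9, was highest at 3 AM.

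CCND1, the D cyclin that growth signals induce, read 673.2 at 11 AM, 446.6 at 3 PM and 617.4 at 7 PM, against 358.2 at 3 AM, 429 at 7 AM and 303.2 at 11 PM. The 3 PM and 7 AM arrays were close, but the groups did not overlap. Its second probe set lay below the median and was highest at 11 PM, with 153.4. TYMS, which makes thymidylate for DNA synthesis, read 267 at 11 AM, 219 at 3 PM and 184.5 at 7 PM, against 199.2 at 3 AM, 130.5 at 7 AM and 123.1 at 11 PM. Here the 3 AM array lay above 7 PM, and the groups overlapped. A second TYMS probe set, below the median, read 12.6 at 7 PM and 61.4 to 86.5 elsewhere. Its log2 difference was -1.09, against 0.58 for the tested one.

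**Figure D2:**
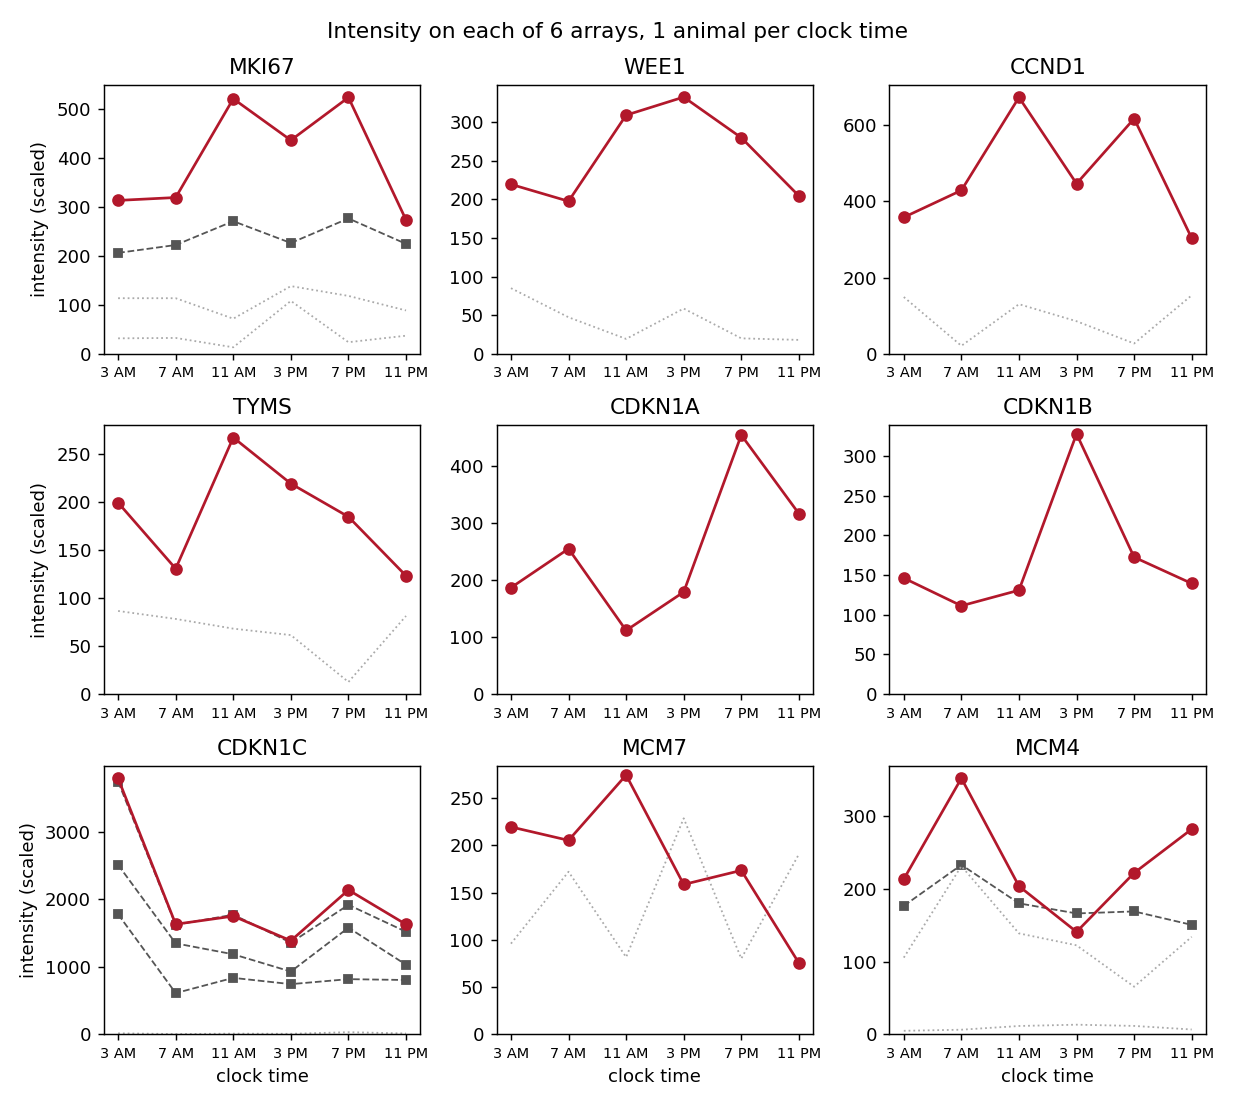
Intensity on the scaled linear axis, starting at 0, against clock time for 9 cell cycle genes, 1 animal per point. Red circles are the probe set used for the gene, grey squares are further probe sets at or above the median, and pale dotted lines are those below it. MKI67, WEE1 and CCND1 are higher on the 3 arrays from 11 AM to 7 PM than on the other 3, and 4 CDKN1C probe sets are highest at 3 AM.

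The division of the day at 11 AM and 11 PM was therefore also fitted, with 3 arrays against 3. It had been listed as an alternative to the day and night arrays and was given this place after its values were seen. By limma 0 of 25 genes had an adjusted p under 0.05 (0.0% of all genes). At an unadjusted p under 0.05, 4 of 25 passed, all higher from 11 AM to 7 PM, where 5.42% of all genes passed and 3.32% did so in that direction. The log2 difference was 0.71 ± 0.18 (SE) for MKI67, with a 95% interval of 0.29 to 1.12 and an adjusted p of 0.877 by limma. It was 0.66 ± 0.23 for CCND1, 0.58 ± 0.25 for TYMS and 0.56 ± 0.18 for WEE1. Of the 25 genes, 20 lay higher from 11 AM to 7 PM, with a median log2 difference of 0.16, against 54.8% of all genes and a median of 0.03. The arrays did not overlap in 6 of the 25 (10.7% of all genes), 5 of them higher from 11 AM to 7 PM (6.5% of all genes): MKI67, WEE1, CCND1, CCNA2 and CCNB1. RRM1 was the sixth and lay lower. On a second RRM1 probe set at or above the median the groups overlapped, with a log2 difference of -0.1.

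These 4 genes differed in how far they rested on single arrays. MKI67 kept an unadjusted p under 0.05 without each array in turn, with log2 differences from 0.64 to 0.79 and p from 0.00569 to 0.0181, and WEE1 also, with 0.51 to 0.63. CCND1 did not without 11 AM (0.54), 7 PM (0.61) or 11 PM (0.54). TYMS did not without 7 AM (0.49), 11 AM (0.45), 3 PM (0.59) or 11 PM (0.45), nor by the ordinary test, with no filter on level, with a robust prior, or under quantile normalization (0.50) or median centring (0.49). Under both scalings MCM4, lower from 11 AM to 7 PM, passed in its place, with -0.65 and -0.66. Without the 3 AM and 3 PM arrays the log2 difference was 0.82 for MKI67 and 0.55 for WEE1, the latter with an unadjusted p of 0.0514. With age as a covariate it was 0.80 for MKI67, 0.86 for CCND1, 0.86 for TYMS and 0.60 for WEE1, and MCM7 passed as well, with 1.14 against 0.38 without age (unadjusted p = 0.00263).

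**Figure D3:**
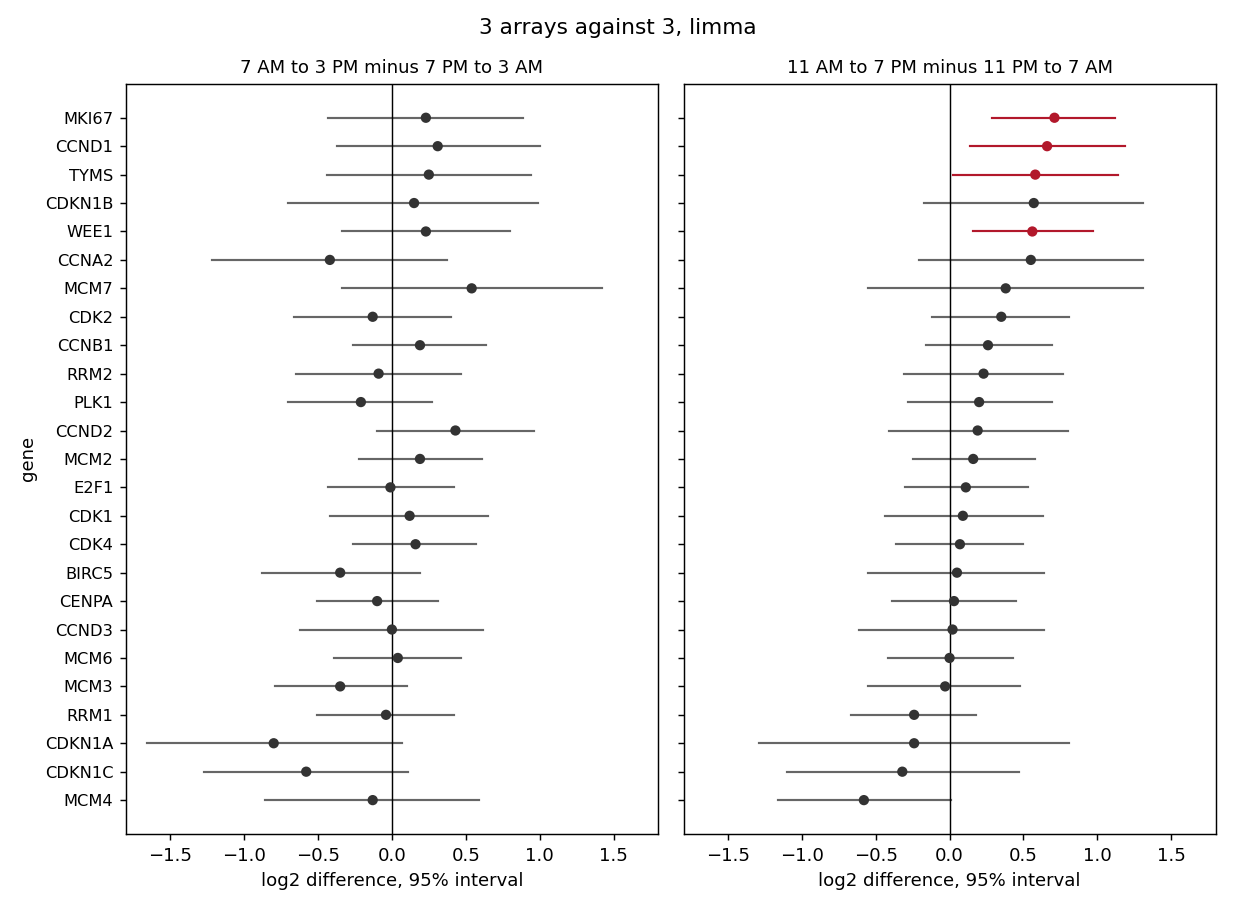
Log2 differences (points) with 95% intervals (lines) from limma for the 25 tested genes, in the day against night arrays on the left and in the 11 AM to 7 PM against the 11 PM to 7 AM arrays on the right. Red marks an unadjusted p under 0.05. On the left 0 genes are red, and on the right 4 are, MKI67, CCND1, TYMS and WEE1.

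Markers of other cells were set beside this division of the day. For lymphocytes, which can divide, 11 of 12 markers had a probe set, 6 at or above the median, and their summed intensity ran from 1716 to 2047.3 from 11 AM to 7 PM and from 1414.4 to 1860.1 on the other arrays. For macrophages, 10 of 11 markers had a probe set, and the sums were 2714.6 to 3200.9 and 3013.4 to 3580.8. No marker was listed at an intensity of 0. The sums of all 10 marker lists overlapped between these 3 and 3 arrays, and 9 of 10 overlapped between day and night, all but the chromaffin list. The part of any of these cells in the MKI67 values was not tested.

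MCM2 to MCM7 encode the helicase that unwinds DNA at replication origins. MCM2 lay between 281.4 and 362.5 and MCM6 between 264.8 and 339.4, ranges of 1.29 and 1.28 times. Both were highest at 7 AM, as was MCM4, and lowest at 11 PM, as was MCM7. MCM7 read 75.6 at 11 PM and 158.7 to 274.5 elsewhere, and its log2 peak-to-trough difference of 1.23 ± 0.47 (SE, adjusted p = 0.836 by limma) was 0.54 without that array. A second MCM7 probe set, below the median, read 190.7 at 11 PM and was highest at 3 PM, so the 2 readings differed in course. MCM4 was highest at 7 AM on its probe set, with 352.1 against 141 to 282.2 elsewhere, and on 2 further probe sets, with 233.1 and 231.4. MCM3 lay between 155.7 and 240.7. MCM5, CDC45 and CDC6 lay below the median, MCM5 with 15.1 at most.

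PCNA, the clamp that holds DNA polymerase, was just below the median at 7.23. It read 230.7 at 3 AM and 171.5 at 7 AM, and 117.7 to 138.3 on the other 4 arrays, so the animals of 12 years had the higher values. In the split at 11 AM PCNA lay lower from 11 AM to 7 PM without overlap (log2 -0.48), unlike MKI67. Of the 21 genes below the median 4 did not overlap in that split, where 10.7% of all tested genes did not. CCNE2, CCNB2 and MAD2L1 were the others and lay higher. The subunits of ribonucleotide reductase, which makes deoxyribonucleotides, had opposite extremes on the probe sets used. RRM1 lay between 387.9 at 3 PM and 577.2 at 7 AM, and RRM2 between 158.6 at 7 AM and 297.9 at 3 PM, 1.49 and 1.88 times. A second RRM1 probe set was also lowest at 3 PM but highest at 11 AM, with 379.3. TK1, which salvages thymidine, lay below the median with 34.3 to 97.3.

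Of the 10 genes of mitotic entry, 5 lay at or above the median. CCNA2, the cyclin of DNA synthesis and early mitosis, read 94.6 at 7 AM and 228.2 to 261.6 on the other 5 arrays. The single low array made its range of 2.77 times. A second CCNA2 probe set, below the median with 16 to 69.1, was highest at 7 AM. In the split at 11 AM its groups overlapped, with a log2 difference of -0.34 against 0.55 for the tested one. CCNB1, the partner of CDK1, was just above the threshold and lay between 124.1 at 11 PM and 186.6 at 3 PM, and CCNB2, below the median, between 81.1 at 11 PM and 162.1 at 11 AM. PLK1, a kinase that promotes mitotic entry, lay between 132.7 and 204.7. CDK1 read 115.3 at 3 AM and 156.7 to 193.7 elsewhere on its tested probe set. On another, below the median, it read 2.2 to 40.4.

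The members most tied to mitosis itself lay mostly below the median. Of 8 genes of the spindle checkpoint and kinetochore 1, CENPA, the histone of centromeres, was tested, with 299.5 to 375.6. BUB1, BUB1B, MAD2L1, TTK, CENPE, CENPF and the motor gene KIF11 lay below. So did AURKA and AURKB, kinases of the spindle, CDC20, which activates the ubiquitin ligase that ends mitosis, TOP2A, which untangles DNA, and FOXM1, the transcription factor of mitotic genes. In 7 of the 21 genes below the median the chosen probe set stayed under 50 on every array: MCM5, CDC45, FOXM1, TOP2A, TTK, CENPE and KIF11. TOP2A read 10.4 to 40.5 and FOXM1 8.7 to 36.4. The probes were designed on human sequence, so a low reading of a macaque transcript is not evidence that it is absent. BIRC5, which encodes survivin, was tested, with 526.6 at 3 AM and 281.2 to 424.9 elsewhere. Both further BIRC5 probe sets lay below the median and were highest at 3 PM (260.3) and 7 PM (38.7). Their log2 day-minus-night differences were 0.28 and 0.40, against -0.35 for the tested one. The probe sets used for CDK1, CENPA, BIRC5, CDKN1C and FOXM1 have names ending in x_at, a mark of probes that can match other transcripts as well.

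Among genes below the median, CDC20 was highest at 3 AM. It read 157.6 there, 79.3 at 11 PM, 51.7 at 7 PM and 33.5 to 36.3 on the day arrays, so day and night did not overlap. TTK, a checkpoint kinase, did not overlap either but lay higher by day, with 17.3, 36.1 and 19.3 against 9.8, 3.8 and 12.7 at night. CDC20 and TTK were the only 2 of the 21 genes below the median without overlap, near the 10.9% of all tested genes. MAD2L1, a sensor of unattached chromosomes, read 130.3 at 3 PM and 49.7 to 79.7 elsewhere. AURKB ranged from 19.8 at 7 AM to 177.7 at 3 PM. These genes were tested only in the fits with no filter on level, where CDC20 and TTK passed the unadjusted threshold of the cosine fit and the day contrast, and MAD2L1 that of the split at 11 AM.

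Over the 25 tested genes, 7 had their highest value at 7 PM, 6 at 7 AM and 6 at 3 PM, 3 each at 3 AM and 11 AM, and 0 at 11 PM. Of all genes 18.3% were highest at 7 PM and 14.8% at 11 PM. At 7 PM 20 of 25 lay above their own mean, where 54.1% of all genes did, and 0 were at their lowest, where 15.1% of all genes were. At 11 PM 9 lay above their mean, where 48.9% of all genes did, and 8 were at their lowest, where 17.4% of all genes were. At 7 AM 9 were at their lowest, the most of any array, where 21.6% of all genes were. The summed markers of adrenal cortex (83024.6), smooth muscle (7447.8), glia with Schwann cells (708.7) and capsule with fibroblasts (16481.7) were also highest at 7 PM. Single markers within these lists differed. In the cortex list CYP11A1, CYP17A1 and HSD3B2 were highest at 7 PM, STAR, NR5A1 and CYP11B1 at 11 PM, and CYP11B2 and MC2R elsewhere. ACTA2, TAGLN and DES were highest at 7 PM, MYH11 and CNN1 at 3 AM. SOX10 and GFAP were highest at 7 PM, S100B at 7 AM. In the capsule and fibroblast list only COL1A2 was highest at 7 PM. The part of these cells in the members' values was not tested. Under quantile normalization and under centring on the median, 20 of 25 again lay above their mean at 7 PM and 10 at 11 PM, where 1 gene was then highest.

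Other genes of the pathway were taken from 4 further lists of 123 genes, of which 60 were tested. By limma 0 of 60 passed the cosine fit or the day contrast after adjustment. At the unadjusted threshold 2 passed the cosine fit (5.56% of all genes), 0 were higher by day (2.95% of all genes) and 3 were lower by day (2.44% of all genes). In the list of origin licensing and the replication fork, 16 genes were tested with a median log2 day-minus-night difference of -0.06. POLD1, the catalytic subunit of DNA polymerase delta, read 106.3, 211.5 and 77 on the day arrays and 217.7, 263.7 and 207.9 at night, so the groups overlapped (log2 -0.92 ± 0.34, SE, unadjusted p = 0.0249 and adjusted p = 0.817 by limma). POLD1 lost the unadjusted call without 7 AM, 3 PM or 11 PM, without 3 AM and 3 PM together, and by the ordinary test. RPA1, which binds single-stranded DNA, had the smallest p of the cosine fit in that list (log2 0.76 ± 0.26), followed by ORC5 (0.60 ± 0.28) and RFC3 (0.65 ± 0.32).

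Among 21 tested genes of RB and E2F, inhibitors and checkpoints, GADD45A, a stress-induced growth arrest gene, read 454.6 at 7 PM, 465.8 at 11 PM and 296.9 at 3 AM, against 255, 292.7 and 222.8 by day. The groups did not overlap, with a log2 difference of -0.64 ± 0.23 (SE, unadjusted p = 0.0239 and adjusted p = 0.814 by limma). CDC25B, the phosphatase that opposes WEE1, read 627.1, 657.1 and 527.3 at night and 424.1, 425.7 and 456.3 by day, also without overlap (log2 -0.47 ± 0.18, SE, unadjusted p = 0.032 and adjusted p = 0.828 by limma). GADD45A lost the unadjusted call without 3 PM, 7 PM or 11 PM and by the ordinary test. CDC25B lost it with age as a covariate or without 7 AM, 11 AM, 7 PM or 11 PM. CHEK2, a DNA damage kinase, differed by 1.46 ± 0.53 (log2, SE) between fitted peak and trough, with its lowest value, 91.6, at 11 AM.

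In the list of ubiquitin ligases, their partners and their targets, 0 of 14 tested genes passed the unadjusted threshold in either fit. PTTG1, which encodes securin, lay lower by day (log2 -0.39 ± 0.18, SE), ESPL1, the protease that securin inhibits, at -0.47 ± 0.29, and SKP2, which marks CDKN1B for destruction, was lowest at 11 PM with 84.3. Of 9 tested mitosis genes 2 passed the unadjusted threshold of the cosine fit, where 5.56% of all genes did. KIF2C, a motor that takes down microtubules, peaked at 19.1 h, 1.85 times its trough, and ZWINT, a kinetochore protein, at 5.58 h, 1.88 times its trough (adjusted p = 0.836 for both by limma). KIF2C lost the unadjusted call without each array in turn, and ZWINT without each but 3 PM. KIF2C also lost it under both scalings, and both genes with age, with no filter, with a robust prior and by the ordinary test. H2AZ1, a histone variant, read 1605.6 at 7 AM and 888.3 at 3 PM (log2 peak-to-trough difference 0.74 ± 0.27), and CENPC differed by 0.46 ± 0.26.

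More than 1 probe set was on hand for 22 of the 46 members. In the 4 genes with more than 1 at or above the median, CDKN1C, MCM4, MKI67 and RRM1, all 6 further probe sets had a fitted peak within 6 h of the one used. Of 20 further probe sets of tested genes that lay below the median, 10 did.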

How the data were processed

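RNA from 6 adrenal glands was hybridised to Affymetrix human expression arrays, 1 per animal, per the labels' protocols. The authors deposited 1 intensity per probe set on a linear scale. The trimmed means of the arrays lie between 325.042 and 325.086, so these intensities had been scaled. No source used here gives the software or summary method. Depth has no meaning for arrays, and their number limits the precision.

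Values were converted to log2(intensity + 1), and fitted differences and ratios of peak to trough are on that scale. Ratios of the highest to the lowest array are of the intensities themselves. Of 22283 probe sets, 68 are controls and 19065 name 1 gene. limma 3.58.1 in R 4.3.3 fitted a 24-h cosine (3 residual degrees of freedom) and contrasts of 3 arrays against 3 on all 7164 genes at or above the median, with Benjamini-Hochberg adjustment over them. Genes below it were tested only in the alternative with no filter. The fits were tested on simulated data. The split at 11 AM was a listed alternative, described as a comparison after its values were seen. The members, lists and splits were chosen with earlier results of these data known. Named are all tested members, MKI67, TOP2A, CDK1, CCNB1 and FOXM1 at any level, and, per further list, the 3 genes of smallest p in the cosine fit and the 2 in the day contrast. Other genes below the median were named after their values were seen. Alternatives covered the level filter, scaling, pseudocount, probe sets, moderation, age and each array left out. Background correction could not be varied from these values. No sequence is printed.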

Additional observations from a re-analysis of the deposited data

How the results depend on the processing

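No member passed adjustment over all genes in the cosine fit, the day contrast or the split at 11 AM under any alternative run, including each array left out. The split at 11 AM was itself a listed alternative to the day contrast. Its fits under the further alternatives, and all fits without the 3 AM and 3 PM arrays, were added after seeing the data. At the unadjusted threshold the count in the cosine fit was 0 of 25, and it became 5 of 46 with no filter on level (CDC20, CENPF, FOXM1, KIF11 and TTK), 4 without the 3 AM and 3 PM arrays (CCND1, MCM7, MKI67 and TYMS), and 0 to 3 without single arrays, the 3 without 3 AM (MCM4, MCM7 and TYMS). In the day contrast 0 became 2 with no filter (CDC20 and TTK), 1 with age as a covariate (CDKN1C), 2 without the 3 AM and 3 PM arrays (CDKN1A and MCM7), 4 with the split at 11 AM and 0 to 2 without single arrays, the 2 without 11 PM (BIRC5 and CDKN1C). In the split at 11 AM the count was 4 of 25, where 5.42% of all genes passed. It became 1 of 6 with the stricter filter. It ran from 2 to 5 without single arrays, the 2 without 11 PM being MKI67 and WEE1. It was 5 with age (MCM7 gained), 6 of 46 with no filter (CCNB2, MAD2L1 and TK1 gained, TYMS lost) and 4 under both scalings (MCM4 in place of TYMS). The filters changed which members were tested (46 with no filter, 6 with the stricter one). The shares of all genes passing under the alternatives of the day contrast and the 11 AM split are not given here. Those counts are therefore not a result about the members. Age ran with clock time over the 6 animals, so the fits with age as a covariate cannot tell the 2 apart. Further genes that changed sign between the day contrast and the split at 11 AM included H2AZ1 (log2 0.01 and -0.48), ZWINT (0.16 and -0.54) and KIF2C (-0.26 and 0.24). With age as a covariate the fitted peak moved by more than 6 h in 6 members (CCND2, CDK1, CDKN1C, E2F1, MCM6 and MCM7). It also moved in GADD45A, RPA1 and SKP2. The fitted log2 difference of SKP2 was then 4.66, although its intensities ran only from 84.3 to 246.5. No paired analysis was possible because the labels give each sample a clock time of its own and no shared number. These values record no detection above background, so low readings are limited by the level filter alone.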
